A study of Macaca mulatta with 30 samples.

Results

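The genes described here are the serpin protease inhibitors of the rhesus macaque (Macaca mulatta), measured by RNA sequencing in liver, pancreas and the 3 large salivary glands. They were taken from the deposited abundance table by symbol: rows named SERPIN with a clade letter from A to I and a number, whose tissue mean reached 1 TPM somewhere. Such a symbol was carried by 32 of the 21292 genes listed, and 30 of these reached the mean. TPM is a transcript's share of its library, scaled to the same total everywhere and corrected for transcript length, so levels of different genes can be set side by side. SERPINB12 and SERPINA9 were left out with highest tissue means of 0.0144 TPM (pancreas) and 0.0495 TPM (liver). The members nearest to the threshold were SERPINA12 at 1.62 TPM and SERPINE3 at 1.85 TPM, both with their highest mean in liver.

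Serpins share a fold with an exposed reactive loop that a protease takes for a substrate. On cleavage the loop swings into the body of the serpin and drags the protease along, which leaves the enzyme distorted and covalently trapped. Most members inhibit serine proteases, some inhibit cysteine proteases, and several have no inhibitory role and carry hormones or fold collagen. The liver secretes many serpins of blood plasma, whereas clade B serpins have no classical secretion signal and act largely inside cells.

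Liver, pancreas, parotid, submandibular and sublingual gland were sampled from the same 6 macaques, 4 female (animals 1 to 4) and 2 male (animals 5 and 6), giving 30 libraries. No genotype, treatment or age is given in the labels for any group. RNA came from 3 frozen sections of 30 µm each per sample, and paired reads of 150 bases were produced. The parotid sample of animal 3 came from the right gland and the other parotid samples from the left, per the library names. The series was built around amylase expression, with salivary glands against pancreas and pancreas against liver as its stated contrasts.

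The tissue labels were checked against marker genes, and 5 libraries stood apart. The 8 hepatocyte markers summed to 96484 to 144186 TPM in liver and to 488 to 5186 TPM elsewhere. In the pancreas library of animal 4 the median of 7 pancreatic acinar markers was 320 TPM, against 12318 to 38363 TPM in the other 5, and its 6 adipocyte markers summed to 18013 TPM. In the submandibular library of animal 4 the 7 salivary markers summed to 2284 TPM, against 261526 to 365946 TPM in the other 5, and its adipocyte markers summed to 7840 TPM. The blood, endothelial and fibroblast markers of both of these libraries were above those of every other library of their tissue (blood sums of 13941 and 10899 TPM). The parotid library of animal 6 held 8 skeletal muscle markers at a sum of 93649 TPM. The sublingual libraries of animals 1 and 4 held 6 squamous epithelium markers at sums of 25500 and 73603 TPM, against 8.63 to 275 TPM in the other 4. The results most affected by these 5 libraries are given with and without them. In addition, the pancreas library of animal 3 held islet markers at a sum of 128958 TPM (the other 5 at most 12003 TPM), and the sublingual library of animal 5 held skeletal muscle markers at 26524 TPM.

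The serpins together made up a larger share of the liver transcriptome than of any other tissue studied. The 30 members summed to 16097 ± 6221 TPM in liver (mean ± SD, n = 6 animals as for all means here), to 1161 ± 681 TPM in sublingual gland and to 839 ± 184 TPM in pancreas. The sums were 370 ± 529 TPM in submandibular gland and 171 ± 64.0 TPM in parotid. The leading member differed between tissues: SERPINA1 with 65.8% of the liver sum, SERPINA3 with 52.5% of the sublingual sum, SERPINI2 with 43.3% of the pancreas sum, SERPINA1 with 36.7% of the parotid sum and SERPINF1 with 26.4% of the submandibular sum. Without the submandibular library of animal 4 that sum was 155 ± 32.1 TPM (n = 5) and SERPINA1 led it with 40.3%. By highest tissue mean, 17 members belonged to liver, 9 to sublingual gland (all of clade B), 4 to pancreas, and 0 to parotid or submandibular gland. Without the 5 libraries the tally was 19 for liver, 6 for pancreas and 5 for sublingual gland, with SERPINB1 and SERPINB2 moving to pancreas and SERPINB8 and SERPINB10 to liver. The highest tissue means of SERPINB2, SERPINB7, SERPINB10 and SERPINB13 were then only 0.278, 0.134, 0.0691 and 0.172 TPM. These lie under the threshold of 1 TPM, so the tissue given for these genes in that tally says little.

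**Figure D1:**
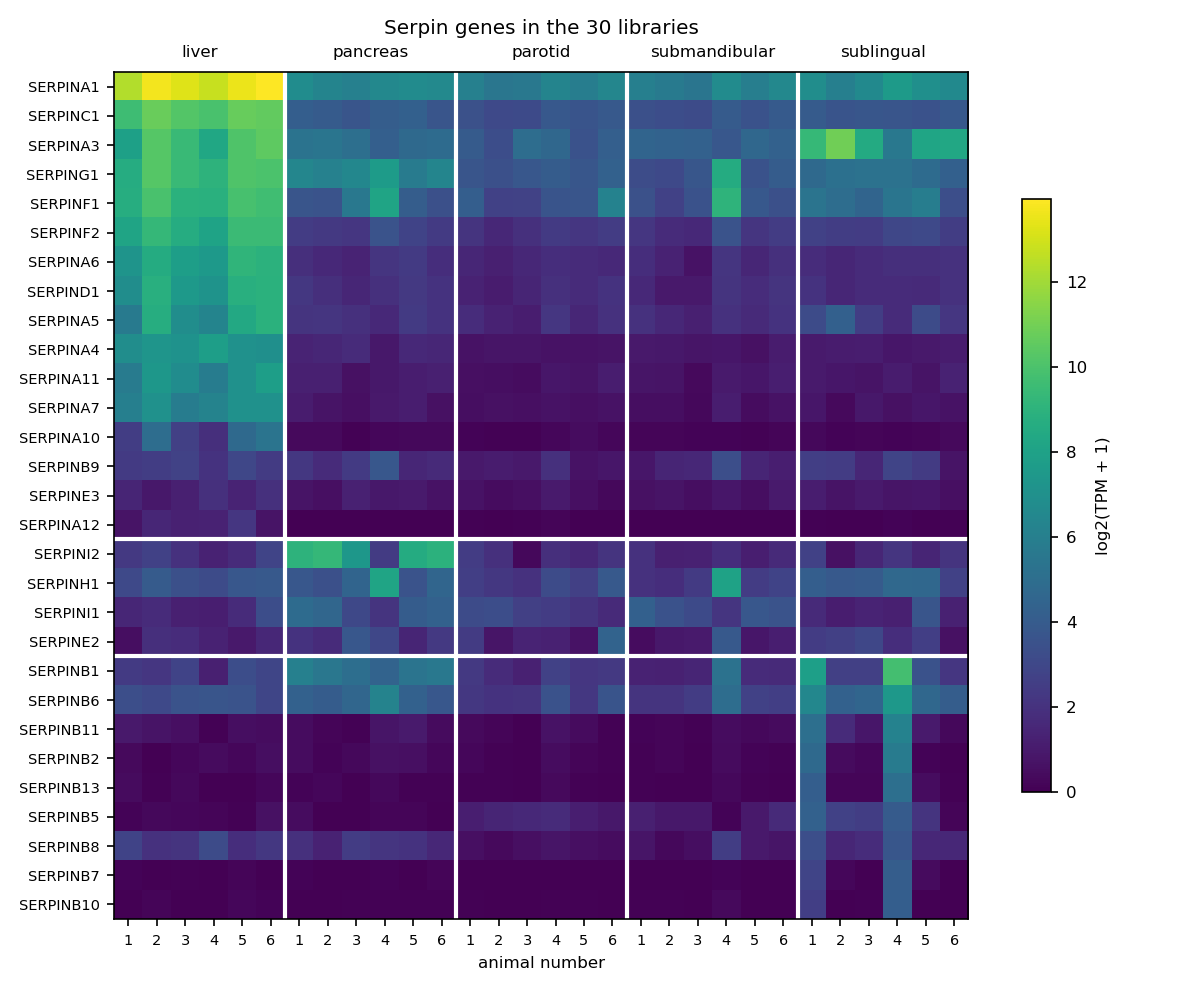
Level of 29 of the 30 serpin genes (rows) in each of the 30 libraries (columns, by tissue and animal number), as log2(TPM + 1) on the colour scale; white lines separate genes with their highest mean in liver, pancreas and sublingual gland. Most of the upper block is bright in all 6 liver libraries, and most of the lower block is bright in the sublingual libraries of animals 1 and 4.

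Differences between tissues were tested with limma on log2(TPM + 1) with the animal as a block, over the 13550 genes that reached 1 TPM in 6 or more libraries. A member is said to have been higher or lower below only where its p-value, adjusted over all genes of the comparison, was under 0.05. Of the 30 members 24 passed the filter on low values. The 6 that did not (SERPINA12, SERPINB2, SERPINB7, SERPINB10, SERPINB11 and SERPINB13) are given as levels only.

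Against liver, 16 of the 24 members tested were lower in parotid and 1 was higher. Of all genes tested 58% were called in this comparison, 53.4% as lower and 4.61% as higher. In submandibular gland 17 were lower and 1 higher, where 50.7% of all genes were called (45.1% lower, 5.68% higher). In sublingual gland 14 were lower and 3 higher, where 31.5% of all genes were called (18.7% lower, 12.8% higher). In pancreas 14 were lower and 4 higher, where 30.4% of all genes were called (23.6% lower, 6.76% higher). Of the 24 members 4, among them SERPINA7, SERPINA10 and SERPINE3, would not have passed the filter without their liver libraries. Among the other 20 13 were lower and 1 higher in parotid and likewise in submandibular gland, 10 lower and 3 higher in sublingual gland, and 11 lower and 4 higher in pancreas. The median log2 difference of the 24 members was -4.39 in parotid, -4.27 in submandibular gland, -2.22 in sublingual gland and -3.26 in pancreas. The corresponding medians over all genes were -0.84, -0.70, -0.10 and -0.36. The median over all genes moved with the scaling: for parotid against liver it was -0.20 after trimmed-mean scaling and 0.29 with TPM rescaled to the summed level of the genes outside the 100 most abundant (hereafter the scaling without the top 100). Under the latter scaling the split of the members became 14 lower and 4 higher in parotid and 14 lower and 3 higher in submandibular gland. Of the 13550 genes tested, 6417 and 6876 were called under it, in either direction.

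The 13 serpins with a liver mean of at least 10 TPM were led by the protease inhibitors of blood plasma. SERPINA1, alpha-1-antitrypsin, the main plasma inhibitor of neutrophil elastase, was the most abundant. Its lowest, median and highest liver levels were 5182, 10994 and 15855 TPM, and its means elsewhere were 115 ± 44.5 TPM (sublingual gland), 91.3 ± 16.3 TPM (pancreas), 69.7 ± 24.6 TPM (submandibular gland) and 62.9 ± 16.4 TPM (parotid). All 6 liver libraries lay far above the other 24. The log2 difference from liver was -7.32 ± 0.29 (SE) in parotid (limma adjusted p = 1.40e-17) and -6.50 ± 0.29 in sublingual gland (adjusted p = 1.92e-16), lower in 6 of 6 animals each time.

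The plasma serpins SERPINC1, SERPIND1 and SERPINF2, which restrain coagulation or fibrinolysis, were liver genes as well. SERPINC1, antithrombin, was at 778, 1369 and 1767 TPM in liver (lowest, median, highest) and between 7.37 and 18.7 TPM in the other 24 libraries. SERPIND1, heparin cofactor II, which inhibits thrombin, ranged from 113 to 479 TPM in liver with a median of 319 TPM, and its mean was 2.10 to 3.05 TPM in the other tissues. SERPINF2, alpha-2-antiplasmin, the main inhibitor of plasmin, ranged from 277 to 735 TPM in liver with a median of 506 TPM. Its highest levels elsewhere were 11.1 TPM in the pancreas and 10.9 TPM in the submandibular library of animal 4. The groups did not overlap for any of these 3 genes, and the log2 differences from liver lay between -6.02 ± 0.31 (SERPIND1 in pancreas, adjusted p = 5.16e-15) and -6.82 ± 0.25 (SERPINC1 in parotid, adjusted p = 4.07e-18).

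SERPINA5, the protein C inhibitor, and SERPINA10, the protein Z-dependent inhibitor of activated factor X, were also liver genes but varied more between animals. SERPINA5 ranged from 52.1 to 488 TPM in liver with a median of 225 TPM, and SERPINA10 from 2.72 to 39.9 TPM with a median of 15.6 TPM. In both cases the livers of animals 2, 5 and 6 were high and those of animals 1, 3 and 4 low. SERPINA10 stayed at or under 0.390 TPM in every library outside liver. It passed the filter on low values through its 6 liver libraries alone, so its tests against liver had to give a difference and are not given.

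The hormone carriers of the family, which bind steroid or thyroid hormones and inhibit no protease, were liver genes too. SERPINA6, corticosteroid-binding globulin, ranged from 146 to 551 TPM in liver with a median of 301 TPM and had means of 1.99 to 2.76 TPM elsewhere. SERPINA7, thyroxine-binding globulin, ranged from 57.2 to 132 TPM in liver with a median of 102 TPM, and no other library exceeded 1.17 TPM. Every liver library was above the other 24 for both genes. The log2 difference of SERPINA6 in parotid from liver was -6.62 ± 0.28 (adjusted p = 6.68e-17).

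SERPINA4 (kallistatin, an inhibitor of tissue kallikrein) was the steadiest of these genes across livers, at 116, 135 and 226 TPM (lowest, median, highest). Its means elsewhere were 0.665 to 1.74 TPM, and the log2 difference of parotid from liver was -6.45 ± 0.20 (adjusted p = 2.89e-19). SERPINA11 ranged from 54.7 to 221 TPM in liver with a median of 120 TPM, against at most 1.52 TPM in any other library. SERPINA12 (vaspin), not tested, was at 0.662 to 3.54 TPM in liver and at most 0.160 TPM elsewhere.

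SERPING1, the C1 inhibitor that restrains complement and the contact system, and SERPINF1, pigment epithelium-derived factor, which does not inhibit proteases, were highest in liver with clear expression in other tissues. SERPING1 was at 400, 866 and 1225 TPM in liver (lowest, median, highest), at 55.6, 81.9 and 202 TPM in pancreas, and at 18.2, 31.2 and 37.6 TPM in sublingual gland. Parotid libraries held 9.51 to 18.9 TPM, and submandibular libraries 7.45 to 16.0 TPM apart from 385 TPM in animal 4. All 6 liver libraries still lay above the other 24. The log2 difference from liver was -3.11 ± 0.54 in pancreas (adjusted p = 5.21e-05) and -5.76 ± 0.54 in parotid (adjusted p = 1.37e-09).

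SERPINF1 ranged from 407 to 989 TPM in liver with a median of 647 TPM. Sublingual libraries held 9.04 to 58.7 TPM, and the medians of pancreas, parotid and submandibular gland were 13.9, 11.5 and 10.3 TPM. The submandibular library of animal 4, at 539 TPM, fell inside the liver range, so these groups overlapped. SERPINF1 was lower than in liver in all 4 comparisons, by -4.41 ± 0.76 in sublingual gland (adjusted p = 4.21e-05) to -5.46 ± 0.76 in parotid (adjusted p = 1.52e-06) on the log2 scale. Without all 5 libraries that stood apart the means were 682 ± 260 TPM in liver, 30.0 ± 21.1 TPM in sublingual gland (n = 4), 19.2 ± 16.2 TPM in pancreas (n = 5), 10.3 ± 4.81 TPM in parotid (n = 5) and 9.74 ± 2.76 TPM in submandibular gland (n = 5).

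In total 11 of the 24 members tested had all 6 liver libraries above the other 24: SERPINA1, SERPINA4, SERPINA5, SERPINA6, SERPINA7, SERPINA10, SERPINA11, SERPINC1, SERPIND1, SERPINF2 and SERPING1. SERPINA7 and SERPINA10 owed their place among the genes tested to their liver libraries. Over all genes tested 6.76% showed such a separation. For pancreas, parotid, submandibular and sublingual gland the count was 0 of 24, where the share over all genes was 0.207%, 0.0295%, 0.00738% and 0.531%. AGT, angiotensinogen, a serpin in structure whose symbol keeps it out of the set, had the same profile, with 534 ± 171 TPM in liver and 3.54 to 6.06 TPM on average elsewhere.

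Outside liver, the 13 members were compared as percentages of their liver means, and they were divided after these values were seen into 9 at low percentages everywhere and 4 above them somewhere. For SERPINA1, SERPINA4, SERPINA6, SERPINA7, SERPINA10, SERPINA11, SERPINC1, SERPIND1 and SERPINF2 (9 genes) the tissue mean was 0.824 to 1.17% of the liver mean in pancreas, 0.650 to 1.12% in sublingual gland, 0.548 to 0.898% in submandibular gland and 0.448 to 0.947% in parotid. The medians of these percentages were 1.00, 0.807, 0.648 and 0.603%. The 8 hepatocyte markers, among them albumin (ALB) and the apolipoproteins APOA1 and APOA2, had medians of 0.847, 0.780, 0.632 and 0.601% in the same tissues, with transthyretin (TTR) in pancreas apart at 11.8% (39.0% in animal 3, 1.25 to 9.76% in the others). Since the 9 genes were grouped by these values, their closeness to the markers is a description only, and the part of liver RNA in these levels was not tested. In bulk tissue, fewer cells of a type and less RNA per cell cannot be told apart.

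The other 4 of these serpins exceeded that percentage somewhere. SERPINA3 stood at 71.9% of its liver mean in sublingual gland and at 2.10 to 3.64% in the remaining tissues. Without the sublingual library of animal 2, its highest, the sublingual percentage was 40.0%. SERPING1 stood at 11.6% in pancreas, 8.82% in submandibular gland, 3.64% in sublingual gland and 1.61% in parotid, and without the 5 libraries at 9.06, 1.31, 3.56 and 1.48%. Its submandibular percentage thus rested on animal 4. SERPINF1 stood at 14.4% in submandibular gland, 9.23% in pancreas, 4.93% in sublingual gland and 3.05% in parotid, and without the 5 libraries at 1.43, 2.82, 4.40 and 1.51%. SERPINA5 was at 3.07% in sublingual gland and at 0.919 to 1.28% in the others.

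**Figure D2:**
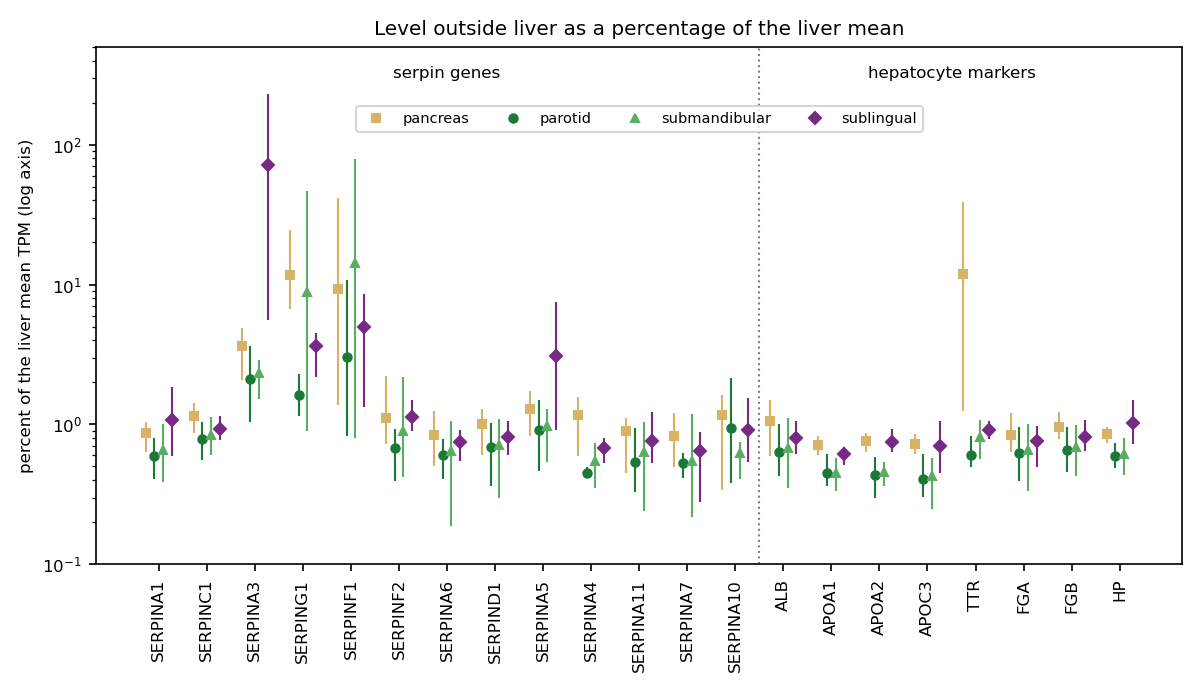
Mean level in pancreas, parotid, submandibular and sublingual gland as a percentage of the liver mean (log axis), for the 13 serpins with a liver mean of at least 10 TPM and for 8 hepatocyte markers; vertical lines run from the lowest to the highest of the 6 libraries. Most genes lie near 1%, whereas SERPINA3 in sublingual gland, SERPING1, SERPINF1 and TTR in pancreas lie above it.

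The level of the liver serpins also differed between animals, and mostly in the same livers. Of the 13 members with a liver mean of at least 10 TPM, 10 were lowest in the liver of animal 1 and 7 were highest in that of animal 6. The livers of animals 2, 5 and 4 were highest for 3, 2 and 1 of them, the last being SERPINA4. The ratio of the highest to the lowest liver was 14.6 for SERPINA10, 9.37 for SERPINA5, 6.09 for SERPINA3 and 4.24 for SERPIND1, and 1.95 for SERPINA4. Among the hepatocyte markers the same ratio ran from 1.62 (APOA1) to 5.27 (the fibrinogen chain FGA).

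SERPINA3, alpha-1-antichymotrypsin, an acute-phase inhibitor of cathepsin G and chymases, was the exception among the liver serpins. Sublingual libraries of animals 1 to 6 held 641, 1961, 374, 46.9, 298 and 333 TPM, and liver libraries 239, 1256, 711, 313, 1103 and 1458 TPM. The lowest, median and highest levels were 17.6, 30.7 and 41.2 TPM in pancreas, 8.78, 16.4 and 30.6 TPM in parotid and 12.9, 19.7 and 24.6 TPM in submandibular gland. The ranges of liver and sublingual gland overlapped widely, while every sublingual library was above every pancreas, parotid and submandibular library.

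SERPINA3 was higher in sublingual gland than in pancreas by 3.56 ± 0.51 on the log2 scale (adjusted p = 1.31e-05, higher in 6 of 6 animals). Parotid and submandibular gland were below sublingual gland by log2 differences of -4.39 ± 0.51 and -4.16 ± 0.51 (adjusted p = 1.19e-06 and 6.45e-06). The difference between sublingual gland and liver was -0.93 ± 0.51 and did not pass the test (adjusted p = 0.184, lower in 4 of 6 animals). These calls held in all 16 alternatives that were run.

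In pancreas the leading serpin was SERPINI2, known as pancpin, a serpin described from exocrine pancreas. The pancreas libraries of animals 1 to 6 held 514, 618, 167, 4.43, 384 and 492 TPM. Liver libraries ranged from 1.53 to 6.33 TPM, and the glands had medians of 1.80 to 2.80 TPM with a maximum of 5.49 TPM. Every pancreas library but that of animal 4 stood at least at 167 TPM, whereas animal 4 fell among the other tissues. SERPINI2 was higher in pancreas than in liver by 5.45 ± 0.66 (adjusted p = 1.95e-07), and the glands were below pancreas by -5.85 ± 0.66 to -6.08 ± 0.66 (adjusted p at most 5.05e-07), in 6 of 6 animals each.

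SERPINI2 went with the acinar markers, in animal 4 as well. As a percentage of the median of the 7 acinar markers (among them the digestive enzyme genes PRSS1, CPA1 and PNLIP), SERPINI2 was at 1.34 to 1.99% in the 6 pancreas libraries, 1.38% in that of animal 4. In the other 24 libraries it was at 0.424 to 2.23%, although both quantities were far lower there. The lowest percentage belonged to the parotid library of animal 3, in which SERPINI2 was at 0.234 TPM. The part of pancreatic RNA in the low levels outside pancreas was not tested. The genes with the most similar pattern to SERPINI2 over the 30 libraries were CUZD1, PNLIPRP2 and ERP27 (Pearson r of 0.997, 0.996 and 0.996 on log2(TPM + 1)), a description across libraries that share tissues and animals.

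**Figure D3:**
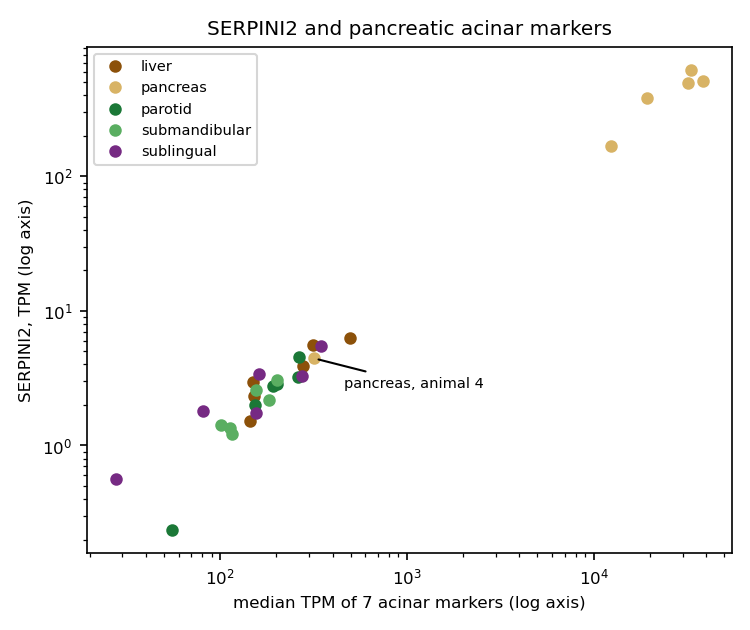
SERPINI2 (TPM, log axis) against the median of 7 pancreatic acinar markers (TPM, log axis) in each of the 30 libraries, coloured by tissue. The pancreas libraries of 5 animals lie at 167 to 618 TPM, and the pancreas library of animal 4 lies at 4.43 TPM among the other tissues.

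SERPINI1, neuroserpin, an inhibitor of tissue plasminogen activator best known from neurons, had its highest mean in pancreas as well. The lowest, median and highest levels were 3.25, 17.5 and 28.3 TPM in pancreas, 3.43, 10.5 and 18.1 TPM in submandibular gland and 2.19, 4.88 and 8.78 TPM in parotid. Medians were 2.04 TPM in liver and 1.51 TPM in sublingual gland, where only animal 5 was high at 11.6 TPM. The low library of pancreas and that of submandibular gland both came from animal 4, and the ranges of these tissues overlapped with liver. The part of the skeletal muscle RNA of the sublingual library of animal 5 in its SERPINI1 level was not tested.

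SERPINI1 was higher than in liver in pancreas (2.06 ± 0.42, adjusted p = 0.000409) and in submandibular gland (1.62 ± 0.42, adjusted p = 0.00263), in 6 of 6 animals each. It was lower in sublingual gland than in pancreas (-2.11 ± 0.42, adjusted p = 0.000749). Submandibular was above sublingual gland by 1.67 ± 0.42 (adjusted p = 0.00563), a call lost without animal 1 and in a fit to only the 12 libraries compared (adjusted p up to 0.0566). The lower level in parotid than in pancreas (-1.27 ± 0.42, adjusted p = 0.0417) was lost in 10 of 16 alternatives, with differences of -0.61 to -1.59 and adjusted p up to 0.550 over all 16, among the lost the fit without the replicate block and those without animal 1, 2, 3, 5 or 6.

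The clade B serpins, mostly intracellular inhibitors that guard cells against their own or incoming proteases, formed the sublingual group. All 9 clade B members with their highest mean in that gland had their highest 2 sublingual values in animals 1 and 4. SERPINB1, an inhibitor of neutrophil elastase, cathepsin G and proteinase 3, was at 236 and 887 TPM there and at 3.71 to 10.4 TPM in the other 4. SERPINB11 was at 33.7 and 71.8 TPM against 0.208 to 2.28 TPM, and SERPINB2, plasminogen activator inhibitor 2, at 25.8 and 55.0 TPM against at most 0.333 TPM. SERPINB13 was at 16.7 and 33.1 TPM, SERPINB7 at 6.30 and 16.3 TPM and SERPINB10 at 4.96 and 16.9 TPM, with the other 4 sublingual libraries at or under 0.365 TPM for all 3.

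These 2 libraries held 96.0 to 99.4% of the sublingual sum of SERPINB1, SERPINB2, SERPINB7, SERPINB10, SERPINB11 and SERPINB13. For SERPINB5, SERPINB6 and SERPINB8 the share was 71.2 to 75.9%. SERPINB6, which inhibits cathepsin G among other proteases, was at 87.0 and 169 TPM against 16.0 to 24.3 TPM in the other 4. SERPINB8, an inhibitor of furin in vitro, was at 9.33 and 12.1 TPM against 1.84 to 2.47 TPM. SERPINB5, maspin, a non-inhibitory serpin of epithelial cells, was at 18.9 and 14.8 TPM against 0.126 to 5.54 TPM.

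The same 2 sublingual libraries differed in cell type markers. All 6 squamous epithelium markers in the table were above 0 in both, with KRT13 at 10694 and 34537 TPM and SPRR3 at 14720 and 38847 TPM, and the other 4 libraries at most at 130 and 136 TPM. The basal keratin genes KRT5 and KRT14 reached 1809 to 2071 TPM there, against at most 177 TPM. The myoepithelial genes ACTA2 (30.1 and 41.3 TPM against 74.0 to 183) and CNN1 (7.35 and 12.3 TPM against 15.5 to 54.7) were below the other 4. The remaining genes of that list showed no such split. MYH11 was at 3.13 and 3.69 TPM against 2.20 to 40.3 TPM, and TP63 at 5.75 and 3.46 TPM against 0.0482 to 5.18 TPM. Of 5 neutrophil and monocyte markers, S100A8 and S100A9 were at 5454 to 24755 TPM there against at most 124 TPM, CSF3R and MNDA were inside their ranges in the other 4, and LYZ was lower, at 4607 and 957 TPM against 4931 to 31311 TPM. The salivary markers summed to 46427 and 4573 TPM in animals 1 and 4 against 189567 to 447165 TPM in the others. The part of these cell types in the clade B levels was not tested.

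**Figure D4:**
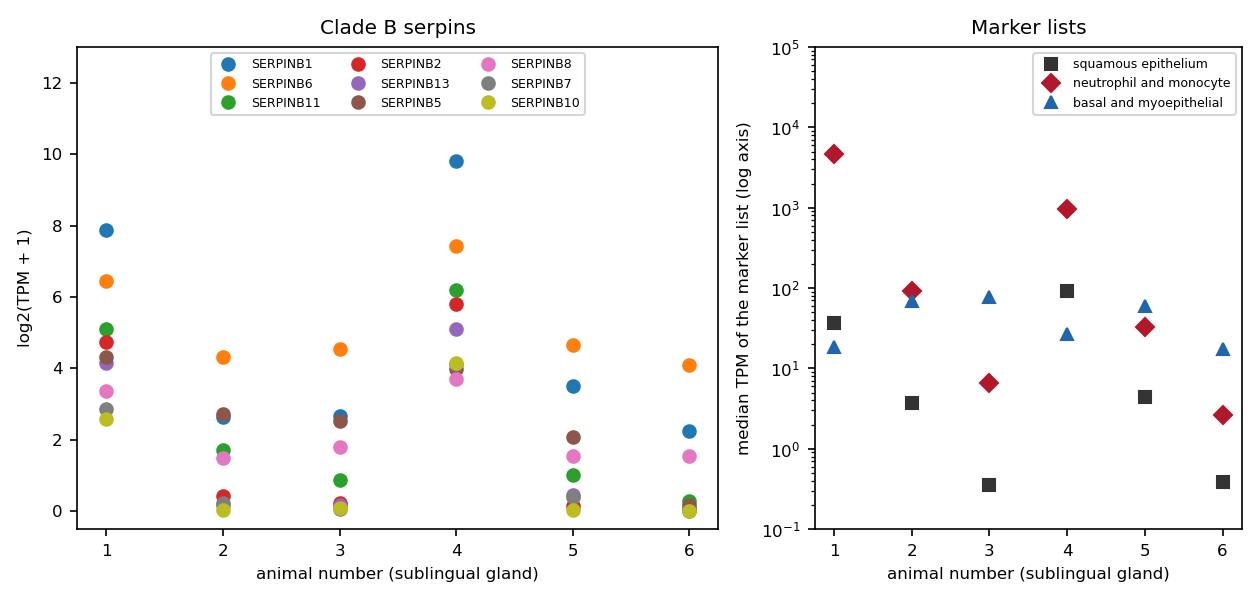
Left, level of the 9 clade B serpins in the sublingual gland of each of the 6 animals, as log2(TPM + 1); right, median TPM of 3 marker lists in the same libraries (log axis). Animals 1 and 4 hold the highest 2 values for each of the 9 genes, and their squamous epithelium medians are 36.9 and 93.0 TPM against at most 4.39 TPM in the others.

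The sublingual calls of clade B members differed in how they fared without these libraries. SERPINB1 was higher in sublingual gland than in liver (2.33 ± 0.84, adjusted p = 0.0360), but without the sublingual libraries of animals 1 and 4 the difference was 0.41 ± 0.58 (adjusted p = 0.679). Leaving out animal 1 or animal 4 in all tissues ended that call too (1.69 and 1.08, adjusted p = 0.198 and 0.169). It was also lost with no filter, in the fit to only the 12 libraries compared and without all 5 libraries. Parotid and submandibular gland were below sublingual gland for SERPINB1 (-2.70 and -2.67 ± 0.84, adjusted p = 0.0144 and 0.0213), and these differences were -0.77 and -0.75 ± 0.58 without those libraries (adjusted p = 0.281 and 0.348). The parotid call was also lost without animal 1 (adjusted p = 0.0953) and the submandibular call without animal 1, 2, 3 or 5 (adjusted p up to 0.197). Both other scalings ended both of these calls, and leaving out all 5 libraries ended the parotid call. Without the sublingual libraries of animals 1 and 4 SERPINB1 was instead lower in sublingual gland than in pancreas by -2.46 ± 0.58 (adjusted p = 0.00484).

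SERPINB6 kept its sublingual calls. It was higher than in liver by 1.88 ± 0.38 (adjusted p = 0.000289, higher in 6 of 6 animals), and parotid and submandibular gland were below sublingual gland by -2.61 ± 0.38 and -2.42 ± 0.38 (adjusted p = 2.28e-05 and 0.000119). Without all 5 libraries that stood apart its means were 20.3 ± 3.68 TPM in sublingual gland (n = 4), 9.48 ± 2.03 TPM in liver (n = 6), 4.90 ± 3.08 TPM in parotid (n = 5) and 4.31 ± 0.966 TPM in submandibular gland (n = 5). The remaining pancreas libraries held 12.6 to 23.6 TPM. The pancreas and sublingual ranges overlapped, and with all libraries these 2 tissues did not differ beyond the threshold (0.69 ± 0.38, adjusted p = 0.262).

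SERPINB5 was at most 0.516 TPM in any liver or pancreas library and was at 0.868 to 2.28 TPM in parotid. Its submandibular levels were 0.107, 0.897 and 2.13 TPM (lowest, median, highest). It was higher in sublingual gland than in liver (2.38 ± 0.40, adjusted p = 2.97e-05) and pancreas (2.46 ± 0.40, adjusted p = 6.33e-05), calls kept in every alternative run. Parotid exceeded liver by 1.10 ± 0.40 (adjusted p = 0.0224) with no overlap of the groups, a call lost without animal 2, 3 or 5 (adjusted p up to 0.0793). The excess of parotid over pancreas (1.18 ± 0.40, adjusted p = 0.0457) was lost in 7 of 15 alternatives, among them those without animal 1, 2, 3, 4 or 5 (adjusted p up to 0.206).

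The lower level of SERPINB5 in parotid and submandibular than in sublingual gland (-1.29 and -1.67 ± 0.40, adjusted p = 0.0141 and 0.00400) was lost without the sublingual libraries of animals 1 and 4 (-0.51 and -0.90 ± 0.34, adjusted p = 0.228 and 0.0621). Leaving out animal 1 in all tissues also ended the parotid call (-0.92, adjusted p = 0.119), as did a pseudocount of 0.1. Both other scalings, the fit to only the 12 libraries compared and the fit without all 5 libraries ended both calls. In these fits the adjusted p was up to 0.840 for parotid and up to 0.284 for submandibular gland. The genes most similar to SERPINB5 over the 30 libraries were GRHL1, KRT5 and KRT14 (Pearson r of 0.955, 0.946 and 0.943), the latter 2 being the basal keratins named above.

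In pancreas SERPINB1 was high in every animal, including animal 4. Its levels there were 20.4, 42.1 and 66.3 TPM (lowest, median, highest), against 1.30 to 8.84 TPM in liver and 1.47 to 5.37 TPM in parotid, without overlap. Pancreas exceeded liver by 2.87 ± 0.84 (adjusted p = 0.0107) in all alternatives run. Parotid was below pancreas by -3.23 ± 0.84 (adjusted p = 0.00939), which without animal 3 had an adjusted p of 0.0553. Submandibular libraries held 1.46 to 2.34 TPM apart from 36.7 TPM in animal 4, and were below pancreas by -3.21 ± 0.84 (adjusted p = 0.0132). That call was lost without animal 1, 2, 3 or 5 (adjusted p up to 0.0797), while without the 3 libraries of animals 4 and 6 that stood apart it held.

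SERPINB6 exceeded liver in pancreas as well (1.19 ± 0.38, adjusted p = 0.0178, higher in 6 of 6 animals), a call lost in the fit without the replicate block and without animal 2 (adjusted p up to 0.0877). Parotid and submandibular gland were below pancreas by -1.92 ± 0.38 and -1.74 ± 0.38 (adjusted p = 0.000740 and 0.00269). SERPINB8 was at 2.52 to 8.17 TPM in liver, 1.54 to 4.57 TPM in pancreas and 0.301 to 0.718 TPM in parotid. Parotid was below liver (-1.81 ± 0.28, adjusted p = 8.62e-06), pancreas (-1.37 ± 0.28, adjusted p = 0.00119) and sublingual gland (-1.69 ± 0.28, adjusted p = 0.000111), with no overlap of the groups.

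SERPINB8 in submandibular gland was also below liver (-1.37 ± 0.28, adjusted p = 0.000308) and sublingual gland (-1.25 ± 0.28, adjusted p = 0.00263). On the scaling without the top 100 these differences were -0.56 ± 0.26 and -0.53 ± 0.26 (adjusted p = 0.0727 and 0.129). The call against sublingual gland was also lost in the fit to only the 12 libraries compared. SERPINB9, which protects cells against granzyme B, was at 3.18 to 6.74 TPM in liver and 0.586 to 2.86 TPM in parotid. It was lower in parotid than in liver (-1.43 ± 0.33, adjusted p = 0.000822), but on the scaling without the top 100 the difference was -0.32 ± 0.25 (adjusted p = 0.311). In submandibular gland the difference from liver was -0.89 ± 0.33 (adjusted p = 0.0284). That call was lost in 9 of 16 alternatives, those without animal 1, 2, 3, 5 or 6 included (adjusted p up to 0.113 without an animal and up to 0.569 over all), and the difference turned to 0.18 on the scaling without the top 100. Parotid was below pancreas and sublingual gland for SERPINB9 (-1.15 and -1.03 ± 0.33, adjusted p = 0.0190 and 0.0172). The former was lost without animal 1 or 3 (adjusted p up to 0.107), without the replicate block (adjusted p = 0.0516) and on the scaling without the top 100 (adjusted p = 0.0785). The latter was lost without animal 1, 2 or 5 (adjusted p up to 0.0892), without the sublingual libraries of animals 1 and 4 (adjusted p = 0.0707) and on both other scalings (-0.52 and -0.03, adjusted p = 0.103 and 0.942).

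SERPINH1 (HSP47), a collagen chaperone of the endoplasmic reticulum, had its highest mean in pancreas, where 1 library stood apart. The pancreas and submandibular libraries of animal 4 held 283 and 261 TPM, against 9.45 to 22.8 TPM and 2.57 to 5.91 TPM in the other 5 of each tissue. Liver libraries ranged from 7.42 to 15.4 TPM, sublingual from 5.39 to 25.3 TPM and parotid from 3.00 to 13.6 TPM. With all libraries, the only call for SERPINH1 was a lower level in parotid than in pancreas (-1.89 ± 0.64, adjusted p = 0.0451), which was lost without animal 1, 2, 3 or 5 and in 3 other alternatives (adjusted p up to 0.200).

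Without the pancreas and submandibular libraries of animal 4 and the parotid library of animal 6, more SERPINH1 differences passed. Submandibular gland was then below liver (-1.21 ± 0.33, adjusted p = 0.00239), pancreas (-1.67 ± 0.34, adjusted p = 0.000721) and sublingual gland (-1.66 ± 0.33, adjusted p = 0.000218). The means without all 5 libraries were 15.5 ± 6.30 TPM in pancreas (n = 5), 14.6 ± 7.61 TPM in sublingual gland (n = 4), 11.2 ± 3.26 TPM in liver (n = 6), 5.10 ± 1.98 TPM in parotid (n = 5) and 4.03 ± 1.32 TPM in submandibular gland (n = 5). With all libraries and on the scaling without the top 100 the difference of submandibular gland from liver had the opposite sign, at 0.97 ± 0.43 (adjusted p = 0.0604). The fibroblast markers summed to 1083 and 5000 TPM in the pancreas and submandibular libraries of animal 4, the highest of their tissues, and their part in SERPINH1 was not tested. The genes most similar to SERPINH1 over the 30 libraries were MMRN2, CAVIN2 and PECAM1 (Pearson r of 0.961, 0.956 and 0.956). PECAM1, an endothelial marker, was at 87.9 and 85.4 TPM in the pancreas and submandibular libraries of animal 4 and at most 14.7 TPM in the rest. How far the correlations rest on these libraries was not tested.

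**Figure D5:**
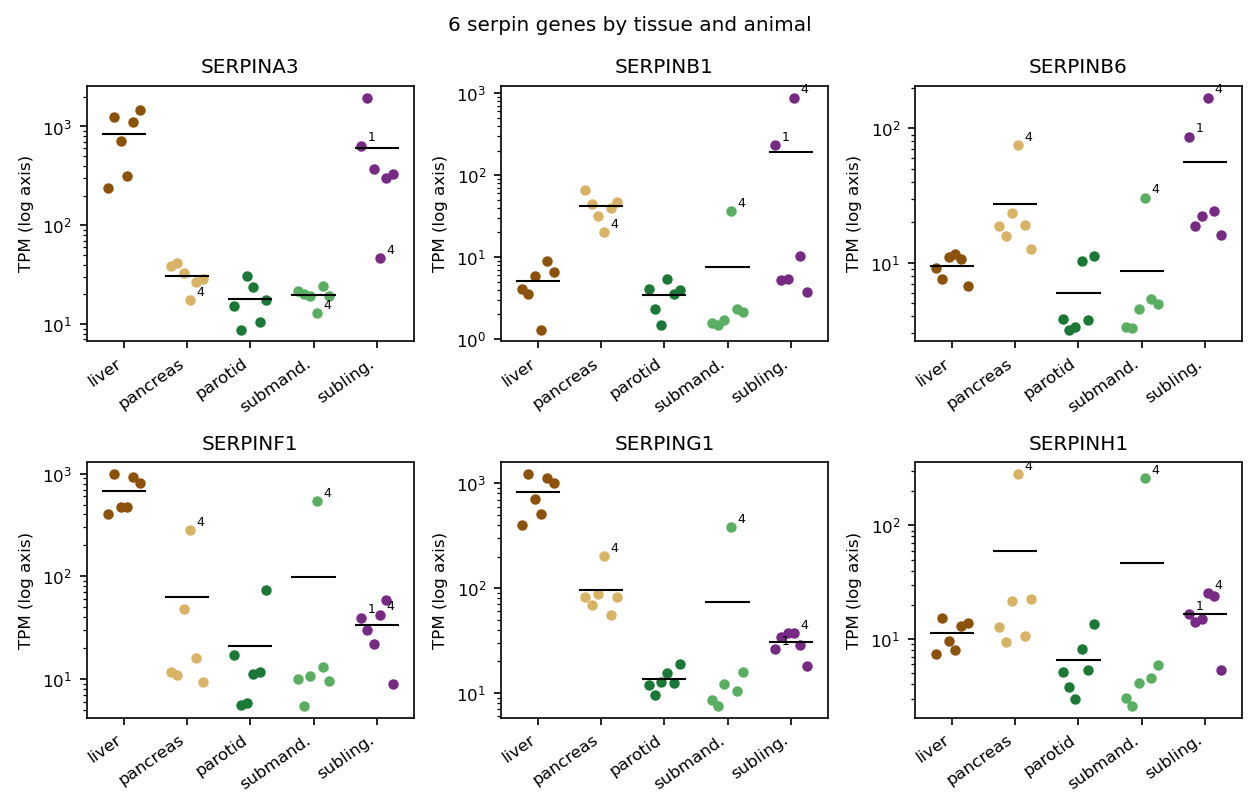
TPM (log axis) of SERPINA3, SERPINB1, SERPINB6, SERPINF1, SERPING1 and SERPINH1 in each library by tissue, points in order of animal number, with a line at the mean; labels 1 and 4 mark the sublingual libraries of animals 1 and 4 and the pancreas and submandibular libraries of animal 4. SERPINF1, SERPING1 and SERPINH1 are highest in animal 4 in pancreas and submandibular gland, and SERPINB1 and SERPINB6 are highest in animals 1 and 4 in sublingual gland.

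The same libraries of animal 4 carried high levels of other tissue serpins. In pancreas SERPINF1 was at 282 TPM, SERPING1 at 202 TPM and SERPINB6 at 75.6 TPM, against highest values of 47.8, 87.6 and 23.6 TPM in the other 5. In submandibular gland SERPINF1 was at 539 TPM and SERPING1 at 385 TPM, against highest values of 13.1 and 16.0 TPM. Even so, SERPING1 was lower in parotid than in pancreas (-2.65 ± 0.54, adjusted p = 0.00100) in all alternatives run. The lower level of SERPING1 in submandibular gland than in pancreas (-2.10 ± 0.54, adjusted p = 0.0108) was lost without animal 1, 2, 3 or 5 (adjusted p up to 0.0939) and held without the 3 libraries of animals 4 and 6.

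SERPINE2, protease nexin 1, passed the limma test in 0 of 10 comparisons, and its highest values were 20.4 TPM in the parotid library of animal 6 and 13.7 TPM in the submandibular library of animal 4.

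SERPINE3 would not have passed the filter on low values without its liver libraries. That favours a difference from liver, so its tests against liver are no support for one. SERPINE3 was at 0.833 to 2.85 TPM in liver and lower in every other tissue, by -0.60 ± 0.18 (pancreas, adjusted p = 0.0111) to -0.86 ± 0.18 (parotid, adjusted p = 0.000261). On the scaling without the top 100 these differences were -0.15 in pancreas, -0.03 in parotid and 0.062 in submandibular gland, and all 4 calls were lost. Trimmed-mean scaling ended the parotid, submandibular and pancreas calls as well (adjusted p of 0.0521 to 0.108). The pancreas call was also lost without animal 1 or 6, and the sublingual call (-0.61 ± 0.18, adjusted p = 0.00912) without animal 6 (adjusted p up to 0.0649 and 0.0603).

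Among pancreas and the glands fewer serpins passed the test. Against pancreas, 9 of 24 members were lower in parotid and 1 was higher, where 15.8% of all genes were called (13.6% lower, 2.24% higher). In submandibular gland 5 were lower and 0 higher, where 9.71% of all genes were called (7.46% lower, 2.25% higher). In sublingual gland 2 were lower and 2 higher, where 13.9% of all genes were called (3.51% lower, 10.4% higher). The 5 lower in submandibular gland were SERPINB1, SERPINB6, SERPINB8, SERPING1 and SERPINI2, all of them lower in parotid too. The 2 comparisons share the pancreas libraries. On the scaling without the top 100 the split was 5 lower and 1 higher in submandibular gland and 6 lower and 2 higher in sublingual gland. In these fits 2123 and 3135 of all 13550 genes were called. SERPINB8 in submandibular gland (-0.93 ± 0.28, adjusted p = 0.0334) was lost without the replicate block (adjusted p = 0.128) and without animal 1, 2, 3, 5 or 6 (adjusted p up to 0.297), and SERPINA4 in parotid (-0.70 ± 0.20, adjusted p = 0.0209) without animal 1, 2, 3 or 5 (adjusted p up to 0.136) and on both other scalings (-0.50 and -0.37, adjusted p = 0.105 and 0.393).

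No serpin passed the test between parotid and submandibular gland. Of the 24 members 0 were called and 0 had an unadjusted limma p under 0.05, where 0.347% of all genes were called (0.214% lower, 0.133% higher). The largest difference in size was that of SERPINI1 (-0.83 ± 0.42, adjusted p = 1.00). Against sublingual gland, 8 members were lower and 0 higher in parotid, where 41.5% of all genes were called (40.6% lower, 0.893% higher). In submandibular gland 5 were lower and 1 higher, where 27.9% of all genes were called (27.2% lower, 0.753% higher). The members' counts were near or below the background share in both comparisons. After trimmed-mean scaling 3 were lower and 1 higher in parotid, and on the scaling without the top 100 the splits were 3 lower and 5 higher in parotid and 2 lower and 3 higher in submandibular gland. Of all 13550 genes 2911 were called in parotid after trimmed-mean scaling. On the scaling without the top 100, 3428 were called in parotid and 3681 in submandibular gland.

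Beside SERPINA3 and the clade B genes, the parotid calls against sublingual gland were SERPINA1 (-0.82 ± 0.29, adjusted p = 0.0262) and SERPINA5 (-1.19 ± 0.42, adjusted p = 0.0275). SERPINA1 turned to 0.65 on the scaling without the top 100 and was lost in 9 of 16 alternatives, those without animal 1, 2, 3 or 5 included (adjusted p up to 0.108 without an animal and up to 0.920 over all). SERPINA5 was lost in 7 of 16, without animal 1, 2, 3 or 5 among them (adjusted p up to 0.156 without an animal and up to 0.903 over all). Sublingual levels of SERPINA5 were 2.23, 6.44 and 18.4 TPM (lowest, median, highest), with the highest value in animal 2, which also held the highest SERPINA3 value of that gland.

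The proteases and cofactors around the serpins are given from lists of genes chosen by function. Of 12 coagulation, fibrinolysis and complement proteases tested, 12 were lower than in liver in each of the other 4 tissues, with median log2 differences of -5.14 in pancreas to -5.76 in parotid (-0.36 and -0.84 over all genes). Of all genes 53.4% were called lower in parotid, 45.1% in submandibular gland, 18.7% in sublingual gland and 23.6% in pancreas. Plasminogen (PLG), the target of SERPINF2 once activated, was at 921 ± 523 TPM in liver, prothrombin (F2), whose active form SERPINC1 inhibits, at 628 ± 322 TPM, and the complement protease C1S, a target of SERPING1, at 729 ± 186 TPM. Against pancreas the list gave 1 call per gland, each a lower level of MASP2, a lectin pathway protease. Of all genes 13.6, 7.46 and 3.51% were called lower than in pancreas in parotid, submandibular and sublingual gland.

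Of 11 tissue and leukocyte proteases tested, KLK1, PRSS8 and ST14 were higher than in liver in all 4 tissues. In parotid, submandibular gland, sublingual gland and pancreas 3, 3, 4 and 4 of the 11 were higher and 5, 3, 2 and 3 lower. Of all genes 4.61, 5.68, 12.8 and 6.76% were called higher and 53.4, 45.1, 18.7 and 23.6% lower. The counts of lower genes were thus near or below the share over all genes. Tissue kallikrein, KLK1, the protease inhibited by SERPINA4, was at 1537 ± 783 TPM in pancreas, 1359 ± 808 TPM in submandibular gland, 838 ± 949 TPM in parotid, 688 ± 312 TPM in sublingual gland, and its liver mean was 47.2 ± 16.0 TPM. SERPINA4 was at or under 2.33 TPM in every library of these other 4 tissues. The cathepsin gene CTSL was lower than in liver in all 4 tissues, as was GZMB, which encodes granzyme B, the target of SERPINB9.

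Of 7 serpin cofactors and clearance receptors, VTN (vitronectin), LRP1 and SDC1 were lower than in liver in all 4 tissues. Of all genes 53.4% were called lower in parotid, 45.1% in submandibular gland, 18.7% in sublingual gland and 23.6% in pancreas. The 3 of 7 were thus near or below that share in parotid and submandibular gland. PLAUR, the urokinase receptor, was higher in sublingual gland than in liver, pancreas, parotid and submandibular gland, with the sublingual libraries of animals 1 and 4 included. Of 13 collagens, the clients of SERPINH1, 1 was lower (COL18A1) than in liver in each tissue, a count below the share over all genes. In parotid, submandibular gland, sublingual gland and pancreas 0, 2, 0 and 1 of the 13 were higher. Of all genes 4.61, 5.68, 12.8 and 6.76% were called higher there. Of 10 collagen folding and modifying enzymes, 7 were lower than in liver in parotid, 5 in submandibular gland and 1 each in sublingual gland and pancreas, where 53.4, 45.1, 18.7 and 23.6% of all genes were called lower.

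Protease inhibitors of other families were taken from a further list. Of 21 tested, AMBP, ITIH1, ITIH2, ITIH3, ITIH4 and TFPI were lower than in liver in all 4 tissues, as most plasma serpins were. In parotid, submandibular gland, sublingual gland and pancreas 7, 7, 6 and 7 of the 21 were lower, where 53.4, 45.1, 18.7 and 23.6% of all genes were called lower. SPINK1, the trypsin inhibitor of pancreatic juice, was at 7390 ± 4024 TPM in pancreas, with 115 TPM in the lowest library. CST3, cystatin C, was at 6194 ± 1352 TPM in submandibular gland. In sublingual gland 9 of the 21 were higher than in pancreas, among them SLPI, PI3 and WFDC2, where 10.4% of all genes were called higher. The list was counted with all libraries only, the sublingual libraries of animals 1 and 4 included. CSTB, also among the 9, ranged from 229 to 38810 TPM in sublingual gland (8639 ± 15479 TPM).

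Neighbouring protein-coding genes were read from RefSeq's annotation of the macaque assembly T2T-MMU8v2.0, where all 30 members were found by symbol. SERPINA10, SERPINA6, SERPINA1, SERPINA11, SERPINA9, SERPINA12, SERPINA4, SERPINA5 and SERPINA3 followed each other in that order, with the identifier LOC701220 between SERPINA6 and SERPINA1. All the members in this run had their highest mean in liver, at 1.62 TPM (SERPINA12) to 10588 TPM (SERPINA1). SERPINF2 and SERPINF1 were adjacent, both highest in liver. SERPINB10, SERPINB2, SERPINB7 and SERPINB11 were consecutive, each with its highest mean in sublingual gland. Without the 5 libraries SERPINB2 was highest in pancreas and SERPINB10 in liver, but only at 0.278 and 0.0691 TPM. The adjacent SERPINB6 and SERPINB9 had their highest means in sublingual gland and liver. The genes most similar to SERPINA1 over the 30 libraries were not serpins: AOC1, AMBP and C9 (Pearson r of 0.995, 0.994 and 0.994). How reads shared by near-identical serpin copies were divided is not given in the sources used here, so the levels of single genes in these clusters are uncertain to that extent.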

How the data were processed

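The authors deposited 1 table of TPM values with a column per library; kallisto, cutadapt, HISAT2 and featureCounts are listed, without versions, in the submitters' processing notes. The transcriptome, genome build and the summing of transcripts to genes are not given in the sources used here, so no coordinates are printed. TPM keeps no sequencing depth, so no counting interval is given, and a rise in abundant genes lowers all others. The 10 most abundant genes took 11.1 to 81.4% of a library, and 0 columns went unused.

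The values were tested as log2(TPM + 1) with limma (version 3.58.1, under R 4.3.3), with tissue and animal in the model, moderated variances with a trend, all 30 libraries in the fit, two-sided p-values and Benjamini-Hochberg adjustment over the 13550 genes that reached 1 TPM in 6 or more libraries. Fold changes on this scale understate the change of low genes. The script was tested on simulated data. Animals pair the tissues by the labels: deviations from the tissue means correlated at 0.161 on average within an animal and at -0.0186 between animals. No 2 libraries were identical (0 pairs), and their correlations reached at most 0.979.

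Members and gene lists were chosen with earlier results of these data known. Members with a highest tissue mean of at least 50 TPM, or called in at least 4 of 10 comparisons, are described in full (22 of 30), up to 4 genes per list with the highest overall mean are named with values, and the 3 genes most correlated with SERPINA1, SERPINI2, SERPINH1 and SERPINB5 are named. Other list members are named as counted. Alternatives were no replicate block, trimmed-mean scaling (30% of log ratios and 5% of levels trimmed), TPM rescaled to the summed level of the genes outside the 100 most abundant, a pseudocount of 0.1, no filter, a filter of 5 TPM, only the 12 libraries compared, leaving out 3 libraries that stood apart, and leaving out each animal. Leaving out the sublingual libraries of animals 1 and 4, all 5 libraries, and for SERPINA3 the sublingual library of animal 2, was added after seeing the data. Gene names and neighbours came from RefSeq (19177 symbols matched). The values of 1 member are not reported here, though it remains in the counts and sums.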

Additional observations from a re-analysis of the deposited data

Results flagged for a closer look

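Sets of 6 libraries (a member in a tissue) were examined where their mean was at least 10 TPM, 46 in all. Of these, 7 had a library apart from the other 5 beyond the 5% critical value of Dixon's test on log2(TPM + 1). By chance about 1 in 20 sets would be flagged, or 2.3 here. That mean included the library set apart. Without animal 4 the submandibular means of SERPINF1 and SERPINH1 were 9.74 and 4.03 TPM (n = 5), under the limit. Those sets entered through that library, so the 2.3 is not a fair yardstick for the 7. All 7 belonged to animal 4. In pancreas SERPINH1 was at 283 TPM (others 9.45 to 22.8), SERPING1 at 202 TPM (others 55.6 to 87.6), SERPINB6 at 75.6 TPM (others 12.6 to 23.6) and SERPINI2 at 4.43 TPM (others 167 to 618). In submandibular gland SERPINF1 was at 539 TPM (others 5.44 to 13.1), SERPING1 at 385 TPM (others 7.45 to 16.0) and SERPINH1 at 261 TPM (others 2.57 to 5.91). Adipocyte, blood, endothelial and fibroblast markers were highest of their tissue in these 2 libraries, and their part in these levels was not tested. SERPINA1 in the same libraries stood at 91.9 and 106 TPM, close to the other libraries of its tissue (67.7 to 111 and 41.2 to 91.8 TPM).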

How the results depend on the processing

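Of 103 called differences of single serpins, 73 kept their call in each of the 16 alternatives run that could be fitted for them; the cause of the changes below was not tested. In the order parotid, submandibular gland, sublingual gland and pancreas against liver, then parotid, submandibular and sublingual gland against pancreas, then parotid against submandibular, parotid against sublingual and submandibular against sublingual gland, the counts of called members without the replicate block (the pairing by animal) were 17, 17, 16, 17, 7, 4, 4, 0, 8 and 6. Leaving out each animal in turn gave 16 to 20, 16 to 21, 15 to 16, 17 to 20, 4 to 9, 2 to 7, 4 to 7, 0 to 0, 3 to 11 and 4 to 14. The calls over all genes moved too. For submandibular against sublingual gland they were 1281 of 13550 without animal 1 and 8865 without animal 4. On the scaling without the top 100, parotid against pancreas gave 6 and sublingual gland against pancreas 8 (all genes called: 2185 and 3135). Trimmed-mean scaling gave 4 for parotid against sublingual gland (2911), and the 12 libraries alone gave 3 for submandibular against sublingual gland (666). Without the 3 libraries of animals 4 and 6 that stood apart, submandibular gland against pancreas gave 8 (4731). Parotid and submandibular against sublingual gland then gave 14 each (9398 and 9442). Without the sublingual libraries of animals 1 and 4, parotid against sublingual gland gave 4 (4823). Without all 5, submandibular and sublingual gland against pancreas gave 9 and 7 (5200 and 4041), and submandibular against sublingual gland 10 (8533). In the main fit the calls over all genes were 2141, 1316 and 1887 of 13550 in parotid, submandibular and sublingual gland against pancreas. Against sublingual gland they were 5625 in parotid and 3787 in submandibular gland. Both counts of 14, and that of 8, were near or below the share over all genes. On the scaling without the top 100, 3 differences turned: SERPINA1 in parotid against sublingual gland (0.65), SERPINB9 (0.18) and SERPINE3 (0.062) in submandibular gland against liver. Calls lost or turned numbered 19 of 103 under that scaling, 13 after trimmed-mean scaling, 12 with the 12 libraries alone, 7 without the replicate block and 2 to 18 without an animal. The replicate block changed the calls it is named beside in the text. Without it the calls of SERPINB9 in submandibular gland against liver and SERPINH1 in parotid against pancreas were lost too. Sequencing depth is unknown, which limits what can be said of members under 1 TPM.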
